A study of Homo sapiens with 9 samples.

Results

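The distal regions with an AP-1 site were accessible regions more than 1 kb from any annotated transcript start that held the exact 7 bp AP-1 consensus TGACTCA, or TGAGTCA, which is the same site read on the opposite strand, within 100 bp of a peak summit. The ATAC-seq peaks of 3 lists were merged wherever they touched or overlapped on chromosomes 1 to 22, which gave 109960 regions. Of these, 87674 were distal, and 13455 distal regions held the site, or 15.3% (95% Wilson interval 15.1 to 15.6). The rule used the sequence around the summits and the distance to a start, and not the strength of a peak or its siRNA, but regions with peaks in several lists had more summits searched. In 12508 of the 13455 regions, or 93.0%, a site lay inside the merged peaks, and in the remaining regions it lay just outside them. The remaining 74219 distal regions served for comparison.

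The lists came from HepG2, a human liver cancer cell line, transfected for 72 hours with 50 nM of siRNA. The groups were a non-targeting control siRNA (NTG) and each of the siRNAs against INO80 (siINO80#1 and siINO80#2), with 3 replicates each. INO80 is the motor subunit of a remodeling complex that slides and edits nucleosomes, and ATAC-seq marks open DNA by the insertion of adapters with a transposase. Each siRNA had 1 peak list that pooled its replicates, so that the spread between replicates is unknown, differences between lists could not be tested and no p-value is given. The lists hold no measure of INO80 itself, and the depletion could not be checked in them.

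AP-1 is a dimer of basic leucine zipper proteins, most often a JUN protein with a FOS protein, and JUN and FOS are immediate products of growth factor, stress and MAP kinase signaling. It binds the pseudo-palindromic site above, known as the TPA response element (TRE), mostly at enhancers far from promoters. There it is known to act with other factors to hold nucleosomes off the DNA. Dimers that contain ATF or CREB proteins favor a longer form, the cyclic AMP response element, with an additional base in the center.

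A total of 15647 sites lay within 100 bp of a summit of the AP-1 distal regions. Counted within this distance, most regions (11574) held 1 site, 1881 held at least 2, and the largest number was 9. The site read TGACTCA on the plus strand in 50.1% of cases. By comparison, chromosomes 1 to 22 held 433788 exact sites, or 162 per Mb of known sequence. Of these, 3.61% lay within 100 bp of a summit of the AP-1 distal regions. TSS-proximal regions held the site less often, in 2591 of 22286, or 11.6% (95% Wilson interval 11.2 to 12.1), although a longer stretch was searched in them (median 368 bp against 201 bp). In the RefSeq table of promoters on GRCh37, 4.95% of 35116 promoters held it. The length searched per promoter was not matched to that of the regions, and this share is therefore not compared with theirs.

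The sequences of the regions that stood out most between lists are shown on the plus strand of GRCh37 (hg19), with the AP-1 site nearest to the strongest summit in capitals. The first 6 are the regions with a peak in both siINO80 lists and none in NTG whose rank in the weaker of these lists was highest, each named by the nearest start of a protein-coding gene.
CBLB: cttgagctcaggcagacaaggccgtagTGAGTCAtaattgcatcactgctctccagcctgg
SEMA3E: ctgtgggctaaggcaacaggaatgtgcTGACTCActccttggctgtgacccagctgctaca
FGF14: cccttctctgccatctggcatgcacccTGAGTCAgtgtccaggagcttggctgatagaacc
PTGER4: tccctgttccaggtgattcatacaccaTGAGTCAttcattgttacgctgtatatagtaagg
DUSP6: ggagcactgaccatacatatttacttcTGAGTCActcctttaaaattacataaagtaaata
DPYSL3: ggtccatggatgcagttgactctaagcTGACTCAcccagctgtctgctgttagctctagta
The windows were chr3:105366040-105366100, chr7:83097764-83097824, chr13:102438333-102438393, chr5:40689736-40689796, chr12:89586381-89586441 and chr5:146945198-146945258, in this order. The CBLB region was intergenic and the other 5 lay in introns of annotated genes.

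The opposite case is given by the 4 strongest regions with a peak in NTG alone, where the intact site also lay within 100 bp of the summit. That of GPR31 was outside the called peak.
SLC9A9: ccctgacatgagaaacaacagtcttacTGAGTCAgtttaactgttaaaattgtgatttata
FAM174A: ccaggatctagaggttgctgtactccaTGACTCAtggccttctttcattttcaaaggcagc
GPR31: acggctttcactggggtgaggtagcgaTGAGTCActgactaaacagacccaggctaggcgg
TOM1L1: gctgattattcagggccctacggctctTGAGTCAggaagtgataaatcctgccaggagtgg
These windows were chr3:143494329-143494389, chr5:99467056-99467116, chr6:167617553-167617613 and chr17:52826761-52826821. The SLC9A9 region was intronic, and the other 3 were intergenic. Both sets thus had the same 7 bp near their summits, and what differed around it is described further on. Each of these 10 windows, widened by 20 bp on either side, occurred once in the genome.

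The first question was in which lists the AP-1 distal regions had a peak. They were found in the siINO80 lists more often, and in NTG alone less often, than other distal regions. Peaks in both siINO80 lists but absent from NTG marked 1905 of 13455 AP-1 distal regions, or 14.2% (95% Wilson interval 13.6 to 14.8), against 3068 of 74219 other distal regions, or 4.13% (3.99 to 4.28). Over all distal regions this share was 5.67%. Peaks in NTG alone marked 1265 AP-1 distal regions, or 9.40% (8.92 to 9.91), against 30.1% (29.8 to 30.4) of other distal regions and 26.9% of all distal regions. Thus the AP-1 site went with a share 3.43 times as large in the first class and 0.312 times as large in the second.

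AP-1 distal regions were also shared by all lists more often. Of them 5496, or 40.8% (40.02 to 41.7), had a peak in each list, against 16.1% (15.8 to 16.3) of other distal regions and 19.9% of all distal regions. A peak in siINO80#1 alone was found for 17.3% of AP-1 distal regions and 25.3% of the others, and a peak in siINO80#2 alone for 9.38% and 14.2%. Thus a peak that only 1 siRNA gave was less frequent at AP-1 sites for each of the 3 siRNAs. The share with NTG and siINO80#1 was 6.14% against 7.39%, and that with NTG and siINO80#2 was 2.82% against 2.78%, the only pair of shares whose intervals overlapped.

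**Figure D1:**
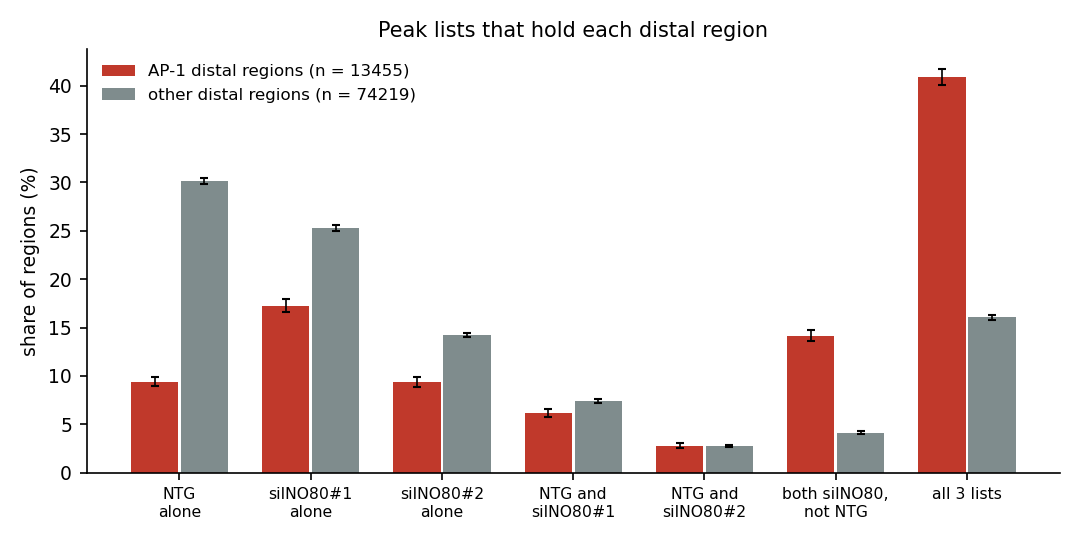
Share of regions (%, vertical axis) in each combination of the 3 peak lists, for the 13455 AP-1 distal regions and the 74219 other distal regions; error bars are 95% Wilson intervals, which cover counting error alone. The AP-1 bars stand above the others for both siINO80 lists without NTG (14.2% against 4.13%) and for all 3 lists (40.8% against 16.1%), and below them for each list alone.

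In all, 7966 AP-1 distal regions had a peak in NTG, 10549 in siINO80#1 and 9042 in siINO80#2. The siINO80#2 list was the shortest, with 52399 intervals on these chromosomes against 68784 for NTG and 68344 for siINO80#1, yet it held 1076 more AP-1 distal regions than NTG. As estimated from the peak values, the siINO80#1 list rested on 1.43 times and the siINO80#2 list on 1.44 times as many reads as NTG. The part of this difference in depth in the class shares was not tested. With lists cut to equal size, 16.8% of AP-1 distal regions were in both siINO80 lists without NTG, against 5.2% of the others.

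A region with peaks in several lists had more summits, and so more sequence was searched for the site: on average 208 bp for NTG alone, 325 bp for both siINO80 lists and 481 bp for all 3 lists. This favors the site in shared regions. When only the strongest summit of each region was searched, 201 bp in every case, the shares in both siINO80 lists were 14.4% with a site and 4.38% without, and those in NTG alone were 10.8% and 29.3%. Read the other way, 38.3% of the distal regions in both siINO80 lists held the site, 31.6% of those in all 3 lists and 5.36% of those in NTG alone. The classes of both siINO80 lists and of NTG with siINO80#1 were searched over a like length (325 bp each), and the site was found in 38.3% of the former and 13.1% of the latter.

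TSS-proximal regions with the site showed the same order at lower levels. Of 2591 such regions, 8.14% (7.15 to 9.26) were in both siINO80 lists without NTG, against 2.57% (2.36 to 2.80) of the TSS-proximal regions without it. Peaks in NTG alone made up 6.29% and 15.8%, respectively.

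The density of sites rose toward the summit, and most steeply in the regions of both siINO80 lists. In these 4973 distal regions, the 10 bp bin at the strongest summit held 33.2 sites per 1000 regions, against a mean of 2.57 in the bins 200 to 290 bp away, a ratio of 12.9. In regions of all 3 lists the values were 22.2 and 2.56 (a ratio of 8.65), and in regions of NTG alone they were 3.09 and 2.03 (a ratio of 1.52). Regions of siINO80#1 alone and siINO80#2 alone lay between, with ratios of 3.71 and 3.5. The average of chromosomes 1 to 22 was 1.62 sites per 10 bp of 1000 regions. In NTG alone the site was thus 1.91 times as dense at the summit as in the genome, and in both siINO80 lists 20.5 times.

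**Figure D2:**
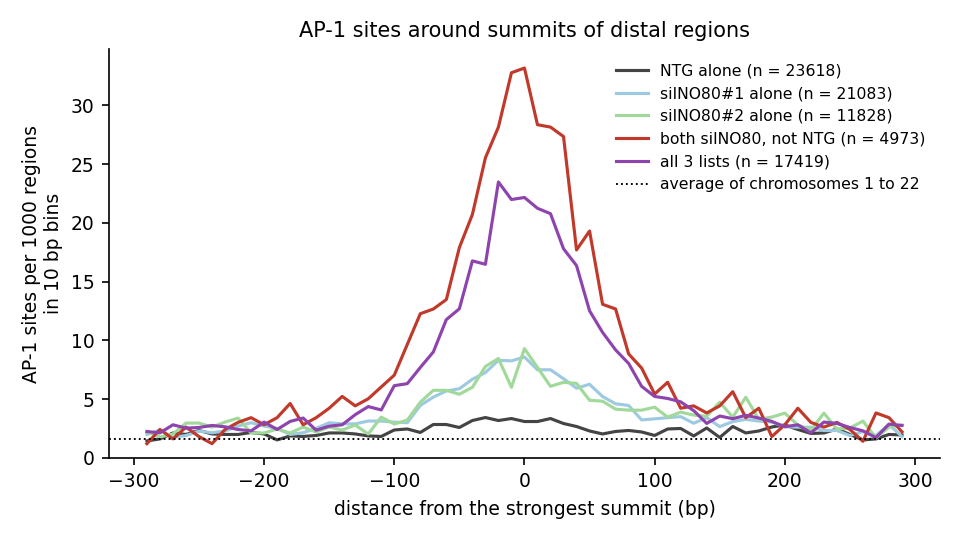
AP-1 sites per 1000 distal regions (vertical axis) in 10 bp bins by distance from the strongest summit in bp (horizontal axis), for 5 classes of regions; the dotted line is the average of chromosomes 1 to 22. The line for both siINO80 lists peaks at 33.2 at the summit, that for all 3 lists at 23.5 just beside it, and that for NTG alone stays below 4.

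Among the AP-1 distal regions themselves, the site also sat closer to the strongest summit in regions of both siINO80 lists without NTG than in those of NTG alone. The median distance from the strongest summit to the nearest site was 35 bp (quartiles 16 and 70) in both siINO80 lists without NTG, and 44 bp (20 and 72) in NTG alone. The site lay within 20 bp of the summit in 31.7% (29.7 to 33.8) of the former and 25.2% (22.9 to 27.7) of the latter. Measured in each list at its own strongest summit, the median distance was 53 bp for the 7966 regions with an NTG peak, 41 bp for the 10549 with a siINO80#1 peak and 44 bp for the 9042 with a siINO80#2 peak. The rule accepts a site near any summit of any list, however. The site lay within 100 bp of the list's own strongest summit in 5755, 8604 and 7123 of these regions, respectively. This selection can lengthen the distance in NTG, and its part in the difference between lists was not tested.

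The share of distal peaks that held the site rose with the strength of the peak in each list and was higher in both siINO80 lists. Strength is given as fold enrichment, the ratio of reads at the summit to the local background of the same list. Over all distal peaks, the share was 16% (15.7 to 16.3) for NTG, 21.2% (20.8 to 21.5) for siINO80#1 and 24.7% (24.2 to 25.1) for siINO80#2. When each list was divided into 5 equal bins by fold enrichment, the weakest bins held the site in 10.1%, 11.2% and 13.6% of peaks, and the strongest in 24%, 33.7% and 38.5%. The gap to NTG was thus 9.75 points for siINO80#1 and 14.5 points for siINO80#2 among the strongest peaks, and 1.09 and 3.47 points among the weakest. With the site sought only at the strongest summit of the list in question, the overall shares were 11.6%, 17.3% and 19.4%.

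**Figure D3:**
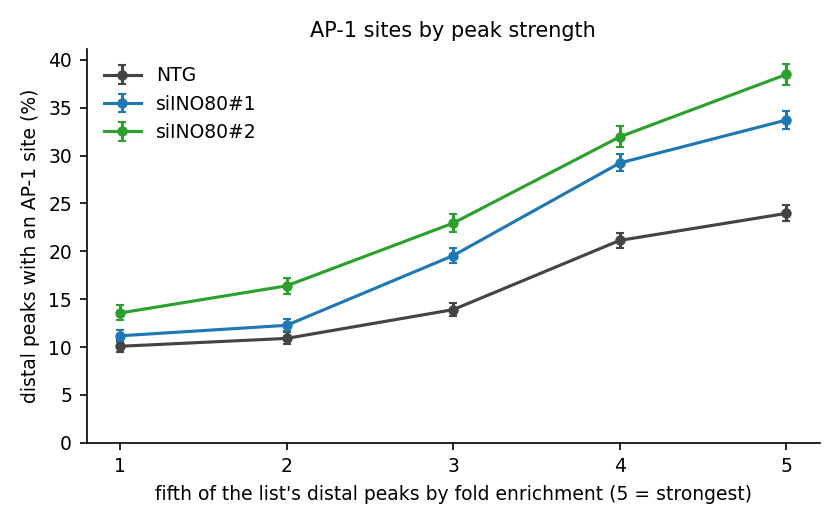
Share of distal peaks with an AP-1 site (%, vertical axis) in 5 equal bins of each list by fold enrichment (horizontal axis, 5 being the strongest), with 95% Wilson intervals. All 3 lists rise with strength, NTG from 10.1% to 24%, siINO80#1 from 11.2% to 33.7%, and siINO80#2 from 13.6% to 38.5%.

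It was next asked how often a peak of a given list was found again in another. Peaks of NTG at AP-1 distal regions were found again in siINO80#1 in 79.4% of 7966 cases and in siINO80#2 in 73.8%, against 41.6% and 33.4% of the 41824 NTG peaks at other distal regions. These shares are raised by the additional summits searched in matched regions. With the site sought only at the NTG summit, they were 74.5% and 68.9% with a site, against 44.2% and 36.1% without. Even in the weakest bin of NTG peaks, 44.6% of those with a site at their summit recurred in siINO80#1, against 19.0% of those without.

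In the reverse direction, the gap was smaller, and among the strongest peaks the site went with less recurrence in NTG. Of siINO80#1 peaks with a site at their own summit, 55.4% were found in NTG, against 46.1% of those without. In the strongest bin, the shares were 87.6% with and 91.6% without. The strongest siINO80#2 peaks were found in NTG in 89.0% of cases with a site and 94.3% of cases without. Between the siINO80 lists no such drop was seen: the strongest siINO80#1 peaks recurred in siINO80#2 in 95.8% of cases with a site and 90.2% without, and the strongest siINO80#2 peaks recurred in siINO80#1 in 98.8% and 97.5%.

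The AP-1 distal regions with peaks in all 3 lists allowed their rank to be compared. The percentile of a peak is its rank by fold enrichment in its own list, where 100 is the strongest. It removes differences in the scale of fold enrichment between lists, but not those in length. The siINO80#2 list was shorter, with 52399 intervals against 68784 for NTG. An unchanged rank from the top therefore has a lower percentile in siINO80#2. The part of list length in the differences below was not tested. The median percentile of the 5496 regions was 69.2 in NTG, 76.6 in siINO80#1 and 72.7 in siINO80#2. For the 11923 other distal regions it was 74.6, 72.8 and 65.2. AP-1 distal regions thus ranked below the others in NTG and above them in both siINO80 lists.

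Region by region, the median difference from NTG was 4.76 points (95% interval from order statistics 4.18 to 5.26) in siINO80#1 and 1.92 points (1.39 to 2.38) in siINO80#2. Other distal regions differed by -1.15 points (-1.40 to -0.925) and -6.61 points (-6.97 to -6.17). The percentile was above that of NTG for 64.8% of AP-1 distal regions in siINO80#1 and 55.3% in siINO80#2, against 45.4% and 32.3% of the others. Both comparisons share the NTG list. Among the 10000 strongest peaks of each list, the median difference of siINO80#2 was -0.0347 points (-0.280 to 0.230). That of siINO80#1 was 1.01 points (0.677 to 1.28). These peaks kept their percentiles in the full lists, which differ in length. The strongest peaks of the 3 lists had bases in common in 97.4% of these AP-1 distal regions, and their summits lay within 100 bp of each other in 3441, or 62.6%. In those 3441 the median differences were 4.57 points (3.99 to 5.18) and 2.11 points (1.59 to 2.61), a choice made after the data were seen.

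A percentile at least 20 points above NTG in both siINO80 lists was seen for 818 of the 5496 AP-1 distal regions, or 14.9% (14.0 to 15.8), against 6.01% (5.59 to 6.45) of other distal regions and 8.81% of all distal regions in the 3 lists. A percentile at least 20 points lower in both was seen for 208, or 3.78% (3.31 to 4.32), against 8.50% (8.02 to 9.02) of the others and 7.02% of all. When the regions were split into 3 equal parts by their NTG percentile, the weakest part showed median differences of 20.8 and 16.1 points at AP-1 sites, against 9.59 and 2.29 points at other regions. In the strongest part the differences were -0.0107 and -1.73 points at AP-1 sites, against -3.40 and -8.15 points elsewhere. Other regions of the weakest part also ranked higher than in NTG, and the AP-1 values are therefore set against theirs.

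**Figure D4:**
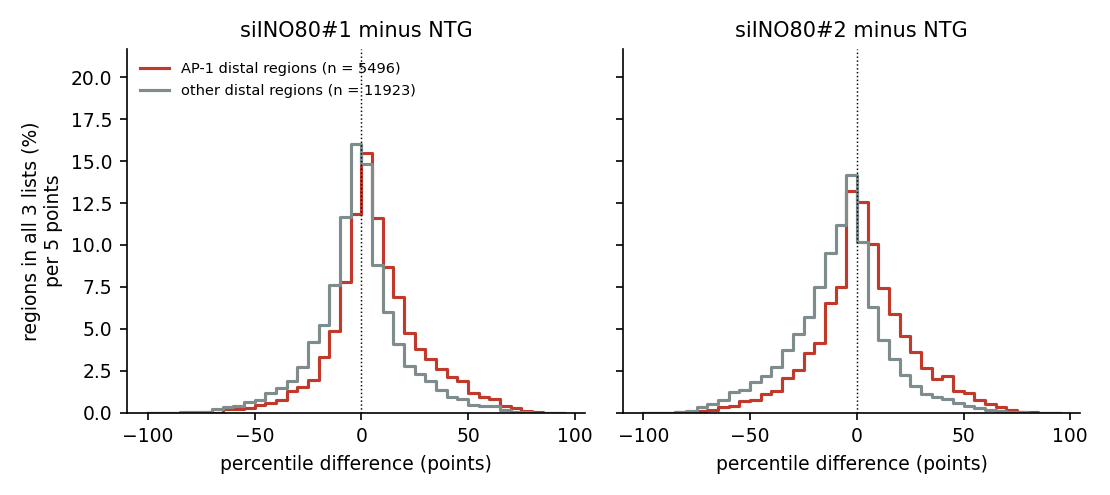
Percentile in siINO80#1 (left) and siINO80#2 (right) minus that in NTG, in points (horizontal axis), as the share of regions per 5 points (%, vertical axis), for the 5496 AP-1 distal regions and the 11923 other distal regions with peaks in all 3 lists. The AP-1 curves lie to the right of the others, with medians of 4.76 against -1.15 points and 1.92 against -6.61 points.

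More sites in a region went with fewer regions in NTG alone. Within the 201 bp around the strongest summit, 10243 AP-1 distal regions held 1 site, 1030 held 2 and 98 held 3 or more. The share in NTG alone was 11.7% (11.1 to 12.4) with 1 site and 2.72% (1.89 to 3.90) with 2, and it was 0 of 98 with 3 or more, where 3 counts of the total give a share of up to 3.06% and the Wilson interval ends at 3.77%. The share in both siINO80 lists without NTG was 14.0% (13.3 to 14.7), 17.2% (15.0 to 19.6) and 22.4% (15.3 to 31.7), and these intervals overlapped between 2 sites and 3 or more. The share in all 3 lists was 34.7%, 51.7% and 48.0%.

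The bases next to the site also differed between classes. They were read on the strand that spells TGACTCA, in the 11574 regions with a single site within 100 bp of a summit. A purine before and a pyrimidine after the site occurred in 36.5%, and the opposite, a pyrimidine before and a purine after, in 14.5%. Regions of the first kind were in both siINO80 lists without NTG in 15.8% (14.7 to 16.9) of cases and in NTG alone in 8.0% (7.22 to 8.85). Regions of the second kind gave 10.1% (8.72 to 11.6) and 17.0% (15.3 to 18.9), so that the order of these classes was turned.

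Of the 16 pairs of neighboring bases, A before and T after had the highest share in both siINO80 lists, 17.6% (15.5 to 19.9) of 1163 regions, with 7.57% in NTG alone. These bases extend the palindrome by 1 base on each side. The lowest share was that of T before and A after, with 5.42% (3.05 to 9.44) of 203 regions, of which 25.1% (19.7 to 31.5) were in NTG alone. Sites with GC on either side, the form within antioxidant response elements that MAF proteins recognize, were in both siINO80 lists in 13.5% (12 to 15.1) of 1856 regions and in NTG alone in 11.2% (9.85 to 12.7), against 13.8% and 10.6% of all regions with a single site.

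To see whether regions with an imperfect site behaved likewise, the 19 sequences that differ from the site by 1 base, strands joined, were sought in the other distal regions within 100 bp of the strongest summit. The share in both siINO80 lists without NTG ranged from 3.86% to 9.59% between variants, with a median of 4.75%, against 14.4% for the exact site searched in the same way. No variant reached the exact site. TGACTAA came closest, with 9.59% (8.55 to 10.7) of 2783 regions, followed by TGAATCA with 8.96% (8.06 to 9.94) of 3549.

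The next were TGACTCG with 8.43% (5.97 to 11.8) of 356 regions, TTACTCA with 7.34% (6.46 to 8.33) of 3010 and TGACGCA with 7.29% (5.19 to 10.2) of 425. The lowest were TGTCTCA with 3.86% (3.27 to 4.54) and TGCCTCA with 3.91% (3.35 to 4.58), whose intervals include the 4.13% of all other distal regions, as did that of TGGCTCA with 4.37% (3.82 to 5.00). TGACTAA and TGAATCA gave 2.32 and 2.17 times that level. TGACTAA also had the lowest share in NTG alone among the variants, 19.6% (18.2 to 21.1), against 30.1% of all other distal regions and 10.8% with the exact site.

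Motifs of other factors were sought on both strands within 100 bp of the strongest summit. The FOXA motif TGTTTAC, bound by pioneer factors of the liver, lay in 5.76% (5.38 to 6.17) of AP-1 distal regions and 5.44% (5.28 to 5.61) of the others. The TEAD motif ACATTCC, read by the DNA-binding partners of YAP, lay in 4.95% (4.60 to 5.33) and 4.27% (4.13 to 4.42). CTCF, an insulator protein, had its motif in 1.09% (0.930 to 1.28) of AP-1 distal regions and 2.60% (2.49 to 2.72) of the others. The motif AAGATGGC of YY1, a subunit of the INO80 complex, lay in 0.691% (0.565 to 0.846) and 1.06% (0.99 to 1.14).

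The liver factor HNF4A had its motif CAAAGTCCA in 1.04% (0.882 to 1.23) of AP-1 distal regions and 0.810% (0.748 to 0.877) of the others. The 140 AP-1 distal regions with it were in all 3 lists in 60.7% (52.4 to 68.4) of cases and in both siINO80 lists without NTG in 5.71% (2.92 to 10.9), below the 14.2% of all AP-1 distal regions. Of the 775 with a FOXA motif, 15.1% (12.7 to 17.8) were in both siINO80 lists without NTG, and of the 666 with a TEAD motif, 15.3% (12.8 to 18.2), close to all AP-1 distal regions. The FOXA motif without an AP-1 site went with 6.24% (5.53 to 7.03), and TEAD without it with 4.57% (3.90 to 5.36). The cyclic AMP response element TGACGTCA was rare, in 27 AP-1 distal regions, of which 5 were in both siINO80 lists without NTG.

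The motifs CCGGAAGT of ETS factors, TTGCGCAA of C/EBP factors, TGATGCAA of C/EBP and ATF dimers, TGTGGTT of RUNX factors and GGGGCGGG of SP1 were sought as well. They lay in 0.156%, 0.0520%, 0.870%, 4.76% and 0.706% of AP-1 distal regions and in 0.146%, 0.0418%, 0.897%, 4.70% and 0.662% of the others. The intervals overlapped for each of these 5.

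The AP-1 distal regions lay in introns in 58.0% of cases, in exons in 3.41% and between genes in 38.6%, against 56.3%, 3.6% and 40.1% of the other distal regions. The median distance to the nearest start of a protein-coding gene was 35.4 kb, against 45.3 kb. Within the AP-1 distal regions it was 45.7 kb for those in both siINO80 lists without NTG, 38 kb for NTG alone and 30.8 kb for all 3 lists. The median GC content of the 201 bp around the strongest summit was 46.3%, against 44.8% in other distal regions. It differed little between the AP-1 classes, with 45.3% in both siINO80 lists without NTG and 44.8% in NTG alone.

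The peaks at AP-1 distal regions were also stronger and wider than others within each list. The rule searches every summit and so favors regions with several of them. Strength and width were not compared with a single summit searched. Their median fold enrichment was 3.75 in NTG, 3.64 in siINO80#1 and 3.57 in siINO80#2, against 3.16, 2.92 and 2.91 at other distal regions. The median number of reads at the summit, recovered from the fold enrichment and its −log10 p, was 15 for AP-1 distal regions in NTG alone, the same as for other regions of that class. Regions in both siINO80 lists without NTG had a median of 24 reads in each siINO80 list, against 21 reads for other regions of this class. In regions of all 3 lists the medians at AP-1 sites were 27 reads in NTG, 38 in siINO80#1 and 35 in siINO80#2, against 29, 34 and 29 elsewhere. These reads are not corrected for depth, estimated at 1.43 and 1.44 times that of NTG in the siINO80#1 and siINO80#2 lists. The median fold enrichments of the same regions were 4.36 in NTG, 4.71 in siINO80#1 and 4.26 in siINO80#2 at AP-1 sites, against 4.78, 4.39 and 3.79 elsewhere.

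Single regions show what these shares consist of. The region 26.8 kb from the start of CBLB, a ubiquitin ligase that restrains lymphocyte receptor signaling, had no NTG peak. Its summit held 48 reads in siINO80#1 at a fold enrichment of 7.96 (percentile 94) and 46 reads in siINO80#2 at 7.42 (percentile 94.2). The region within 6.30 kb of SEMA3E, a secreted guidance cue, held 55 and 45 reads at fold enrichments of 9.10 and 7.26.

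The region 89.2 kb from FGF14, a partner of voltage-gated sodium channels, held 53 reads in siINO80#1 and 44 in siINO80#2 at fold enrichments of 8.77 and 7.10. That near PTGER4, a receptor for prostaglandin E2, lay 7.94 kb from the start, held 2 sites and had fold enrichments of 8.95 and 6.87. The region nearest to DUSP6, a phosphatase that inactivates ERK, was 159 kb away and held 44 reads in each siINO80 list at fold enrichments of 7.31 and 7.10. The region 55.6 kb from DPYSL3, a cytoskeletal protein of growing axons, held 70 and 48 reads at 9.42 and 6.79. All 6 were thus among the strongest 8% of peaks in both siINO80 lists, with the site between 14 and 69 bp from the strongest summit.

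Of the regions in NTG alone, the one near SLC9A9, an endosomal sodium-proton exchanger, was the strongest, with 43 reads at a fold enrichment of 8.89 (percentile 95.7). The regions nearest to FAM174A, GPR31 and TOM1L1 had 33, 51 and 38 reads at fold enrichments of 7.06, 6.74 and 6.48. Their sites lay between 39 and 53 bp from the summit. None of the 4 had a peak in either siINO80 list.

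The strongest AP-1 distal regions of all lists stood at the top of each. The region 20.8 kb from ARHGAP32 had fold enrichments of 17.7 in NTG, 19.0 in siINO80#1 and 16.2 in siINO80#2, on 105, 148 and 131 reads. The region near AGBL1, which encodes a carboxypeptidase, had 16, 16.5 and 14.2, and that near CENPF, a kinetochore protein, 16, 17.1 and 13.7. The remaining one, near MRPS28, a protein of the mitochondrial ribosome, had 15.7, 18.7 and 13.9. Their percentile was above 99.8 in every list, so that no rise in rank could be seen there.

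Strength is that of the strongest peak of each list in the merged region. The largest rises in rank among regions of all 3 lists were those near TRHDE, NCK2, ST6GAL2 and ADCY8. TRHDE encodes an enzyme that degrades thyrotropin-releasing hormone, and the percentile of its region was 7.78 in NTG, 91.9 in siINO80#1 and 90.6 in siINO80#2. Its fold enrichments were 2.49, 7.18 and 6.44. The region in an intron near NCK2, an adaptor of receptor tyrosine kinases, had a fold enrichment of 2.59 in NTG against 5.80 and 7.41. That near ST6GAL2, a sialyltransferase, had 2.33, 4.64 and 5.11, but its NTG peak did not reach the site. Near ADCY8, an adenylyl cyclase, the NTG peak neither covered the site nor overlapped both siINO80 peaks, and its values are therefore not compared.

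The largest falls were smaller in span. The region near CCDC18 had 33 reads in NTG and 16 in each siINO80 list, with fold enrichments of 7.06, 2.76 and 2.68 and percentiles of 90.3, 34.1 and 28.7. The region near TCF7, a transcription factor of Wnt signaling, had fold enrichments of 4.04, 2.37 and 2.24. Those near FRMD1 and RAPGEF1, an exchange factor for Rap1, had 4.57, 2.43 and 2.48, and 4.78, 2.5 and 2.35. The siINO80#2 peaks near CCDC18 and FRMD1 did not cover the site. Regions that moved in opposite directions both carried the intact site, as shown for one of each, at chr12:72690416-72690476 and chr1:93741528-93741588 on the plus strand of GRCh37 with the site in capitals.
TRHDE: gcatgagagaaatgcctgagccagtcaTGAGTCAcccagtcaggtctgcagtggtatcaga
CCDC18: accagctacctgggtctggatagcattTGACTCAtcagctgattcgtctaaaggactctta

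**Figure D5:**
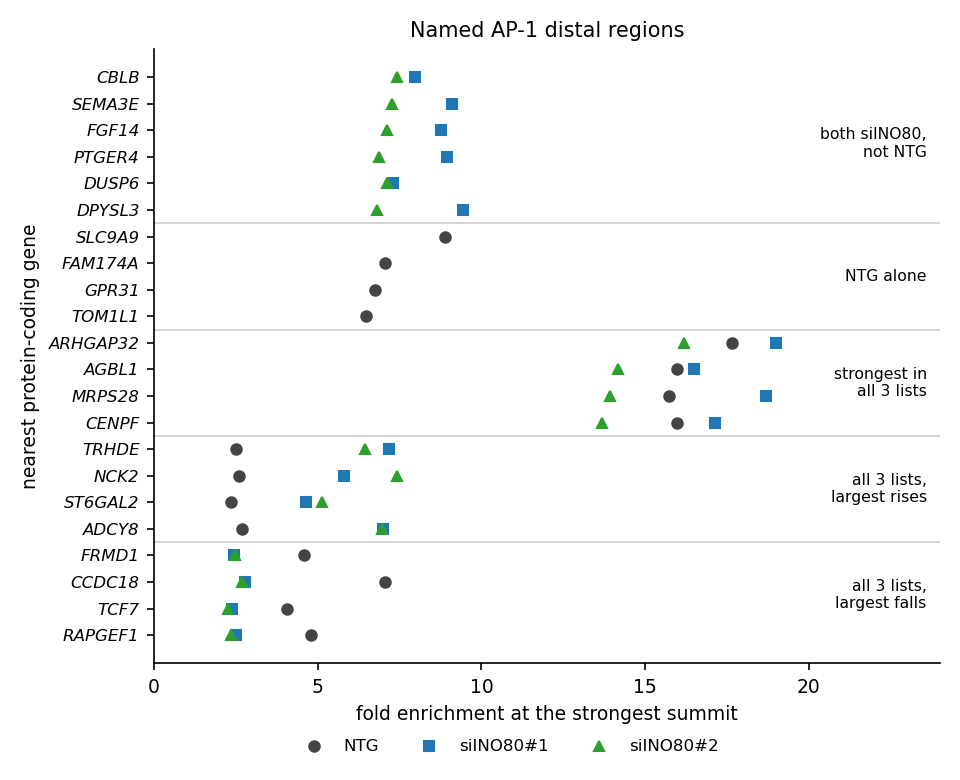
Fold enrichment at the strongest summit (horizontal axis) of 22 named AP-1 distal regions in NTG (circles), siINO80#1 (squares) and siINO80#2 (triangles), by nearest protein-coding gene; a missing symbol means that the list had no peak there. The 6 regions of both siINO80 lists lie between 6.79 and 9.42, and the 4 strongest regions of all 3 lists lie between 13.7 and 19.0.

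Genes that are known for AP-1, stress or liver functions were examined by their nearest AP-1 distal regions. Of all AP-1 distal regions, 40.8% were in all 3 lists, 14.2% in both siINO80 lists without NTG and 9.40% in NTG alone. The counts of each gene list were not tested against these shares. Of 18 genes of AP-1 subunits and related leucine zipper proteins, 6 had such a region, 12 regions in all. Of these, 7 were in all 3 lists, 1 in both siINO80 lists without NTG and 1 in NTG alone. The region 65.0 kb from JUN had fold enrichments of 5.48 in NTG, 6.66 in siINO80#1 and 5.45 in siINO80#2, and a further one 28.4 kb away had 3.94, 4.74 and 5.15. The region near ATF3, a stress-induced repressor of the family, had 4.96, 6.25 and 4.78, and that near BATF3 had 6.72, 7.15 and 7.26. The nearest sites of these regions lay 204 and 103 bp from the strongest summit.

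Of 25 targets of MAP kinase and stress signaling, 13 had 54 AP-1 distal regions, of which 29 were in all 3 lists, 5 (9.26%) in both siINO80 lists without NTG and 3 (5.56%) in NTG alone. The region 15.3 kb from GADD45A, a growth arrest and DNA damage gene, was among the strongest, with fold enrichments of 9.68, 9.56 and 10.3. Of 28 matrix and adhesion genes, 20 had 51 regions, with 26 in all 3 lists, 5 (9.80%) in both siINO80 lists without NTG and 4 (7.84%) in NTG alone. The region 441 kb from THBS1, a matrix glycoprotein, had a fold enrichment of 3.28 in NTG, 8.30 in siINO80#1 and 7.02 in siINO80#2. Regions near SPP1, the gene of osteopontin, and FN1, the gene of fibronectin, had 8.88, 7.31 and 4.89, and 10.3, 6.94 and 7.36. Their nearest sites lay 168 and 137 bp from the strongest summit of the region, and the values are those of summits and not of the sites.

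Of 27 liver genes, 11 had 17 AP-1 distal regions, of which 10 were in all 3 lists, 3 in both siINO80 lists without NTG and 1 in NTG alone. The region 15.0 kb from HNF4A, a master regulator of hepatocyte genes, had fold enrichments of 6.37, 7.88 and 4.49. At the regions near ALB, the gene of albumin, and AFP, the gene of alpha-fetoprotein, the strongest siINO80#1 peak did not cover the site. Of 15 genes of the INO80 complex, 5 had 7 regions, of which 5 were in all 3 lists, 0 in both siINO80 lists without NTG and 1 in NTG alone. The share in both siINO80 lists without NTG was 8.33% (1.49 to 35.4) for the AP-1 genes, 9.26% (4.02 to 19.9) for the stress targets, 9.80% (4.26 to 21) for the matrix genes and 17.6% (6.19 to 41.0) for the liver genes. For the INO80 complex, 3 counts of the total of 7 regions give a limit of 42.9% and the Wilson interval ends at 35.4%. Each of these intervals includes the 14.2% of all AP-1 distal regions.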

How the data were processed

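ATAC-seq libraries of HepG2 were made from 9 samples, 3 for each of NTG, siINO80#1 and siINO80#2, grouped by sample title. The submitters' processing notes name Trim Galore 0.4.1, Bowtie2, SAMtools, MACS2, deepTools 2.2.4 and hg19, without their roles. The peak calling thresholds, any shift for the transposase and the filter applied to the lists are not given in the sources used here. The authors deposited 1 peak list per siRNA. The fold enrichment in it is a ratio to the local background, and significance was deposited as −log10 p and −log10 q (lowest −log10 q 1.30 in each list).

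Intervals with several summits were counted once, ranked by their summit of highest fold enrichment, and merged across lists. Transcript starts were those of GENCODE 44 lifted to GRCh37. Shares carry 95% Wilson intervals, which cover counting error only and treat neighboring regions as independent. Reads at summits and their background were solved from fold enrichment and −log10 p, assuming the formulas of MACS2, with 17 summits unsolved. Relative depth was estimated as the lowest background of a list (3.82 in NTG, 5.16 in siINO80#1 and 5.34 in siINO80#2) divided by its narrowest interval. These intervals of 148, 140 and 144 bp were assumed to stand for the length of a read as counted, which is not given. The named regions were the 6 of both siINO80 lists without NTG whose smaller percentile was highest, the 4 strongest in NTG alone and in all 3 lists, the 4 with the largest smaller rise and fall, and up to 4 per gene list. The regions and gene lists were chosen with earlier results of these data known. The work used bedtools 2.31.1 and, under Python 3.11.15, pysam 0.24.0, pandas 2.3.3, matplotlib 3.10.9, numpy 2.4.6 and scipy 1.17.1. Merging, site search and read recovery were tested on simulated data. The alternatives are described with their effects.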

Additional observations from a re-analysis of the deposited data

Results flagged for a closer look

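The median differences of the siRNAs had opposite signs at 1846 AP-1 distal regions with peaks in all 3 lists, those in the middle of 3 equal parts by NTG percentile. Their median percentile difference from NTG was 4.02 points (95% interval 3.28 to 4.92) in siINO80#1 and -0.125 points (-1.24 to 0.906) in siINO80#2, and the latter interval includes 0. The siINO80#2 list was shorter than that of siINO80#1 (52399 against 68344 intervals), which lowers the percentile of an unchanged rank from the top. The difference between the siRNAs, and the part of list length in it, was not tested. Other distal regions of the same part gave -2.70 and -10.6 points, so that AP-1 distal regions stood above them with both siRNAs.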

How the results depend on the processing

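The values below are given in the order share of AP-1 distal regions and of other distal regions in both siINO80 lists without NTG, share of each in NTG alone, share of distal peaks with a site in NTG, siINO80#1 and siINO80#2, and median percentile difference of siINO80#1 and siINO80#2 from NTG, where they left the interval of the value in the report. Requiring a −log10 q of at least 5 gave 18.0%, 6.31%, 6.18%, 23.3%, 22.7%, 31.3%, 35.5%, 2.88 and 0.832 points. At equal list size they were 16.8%, 5.2%, 7.23%, 25%, 17.9%, 24.3% (siINO80#2 stayed within), 4.03 and 0.828 points. With the 10000 strongest peaks they were 23.1%, 8.89%, 4.63%, 22.3%, 22.6%, 33.8%, 38.4%, 1.01 and -0.0347 points. The last was of opposite sign, but its interval (-0.280 to 0.230) includes 0, and the cause was not tested. Wherever lists were cut, each peak kept its percentile in the full list, and the full lists differ in length. With only the strongest summit searched, the shares after the first were 4.38%, 10.8%, 29.3%, 12.5%, 17.3% and 19.8%, and the differences 6.38 and 3.89 points. A window of 50 bp gave 15.5%, 4.43%, 7.11%, 29.5%, 12.3%, 16.4%, 19.5%, 5.37 and 2.54 points. Merging within 500 bp gave 4.81% of other regions in both siINO80 lists, 8.51% and 28.9% in NTG alone, and 17.1%, 22.4% and 25.8% of peaks with a site. An overlap of at least 50% of the strongest peak gave 16%, 3.81%, 12%, 33.2%, 14.6% for NTG peaks, 3.54 and 1.02 points. A distance of 2.5 kb to a start moved none of the 9 values beyond its interval. Ranking by −log10 q left both median differences within their intervals, and the shares do not use the ranking and could not move.

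Alternatives chosen after seeing the data were a pileup of at least 5 times background, which gave 32.0% of other regions in NTG alone, 21.8%, 31.4% and 35.6% of peaks with a site and 3.44 points for siINO80#1, and equal list size with only the strongest summit, which gave 17.1%, 5.51%, 8.14%, 24.3%, 14.0%, 19.9%, 19.8%, 5.595 and 2.59 points. Ranking by recovered reads left both median differences within their intervals, and the shares again could not move. Keeping only regions with the 3 strongest summits within 100 bp did not move the median differences either. Over the 13 settings, main included, the share of AP-1 distal regions in both siINO80 lists without NTG was 2.59 to 4.20 times that of other distal regions, and the share in NTG alone 0.207 to 0.368 times. No paired analysis was possible because the 3 replicates of a group share 1 pooled list, and no replicate could be left out either. NTG had the fewest reads by the estimate of depth and the most intervals, and the part of depth was not tested.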

Other observations

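The share of distal regions that held the AP-1 site differed between chromosomes. It was found in 11.2% (95% Wilson interval 10.7 to 11.6) of the 19097 distal regions of chromosome 2, 11.9% (11.3 to 12.5) of the 10870 of chromosome 6 and 11.9% (11.1 to 12.8) of the 5084 of chromosome 14. These were the lowest shares, and the highest was 21.1% (19.2 to 23.1) of the 1628 distal regions of chromosome 18. By number, however, chromosomes 2 and 6 held the most AP-1 distal regions, 2130 and 1289. Chromosome 1 held 974 among 5147 distal regions, and chromosome 18 held 343. A low share thus did not mean few sites, and it depends on how many distal regions a chromosome had. The share of AP-1 distal regions in both siINO80 lists without NTG was between 9.47% (5.06 to 17.0) of 95 regions on chromosome 19 and 18.1% (15.6 to 21) of 777 regions on chromosome 5. These intervals overlapped between chromosomes 19 and 5, but not between every pair of chromosomes.

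AP-1 distal regions were nearest to the start of 5707 of 19222 protein-coding genes, and regions in both siINO80 lists without NTG to 1502. The genes with the most of the latter, 6 each, were LRFN5, EYS, QKI and FLRT2, which were singled out after their values were seen. These counts were not adjusted for the number of distal regions near each gene. Among all AP-1 distal regions, 14.2% were in both siINO80 lists without NTG and 9.40% in NTG alone. The counts per gene are small and were not tested against these shares. QKI, an RNA-binding splicing regulator, had 17 AP-1 distal regions among 82 distal regions, none of them in NTG alone. FLRT2, a cell adhesion protein of axon guidance, had 11 among 36, of which 3 were in all 3 lists and 0 in NTG alone. LRFN5, a synaptic adhesion protein with 612 distal regions, had 37, of which 7 were in NTG alone, so that regions of opposite classes lay near the same gene.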
